A study of Mus musculus with 11 samples.

Results

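The regions described here held an ATAC-seq peak in every one of 8 libraries of mouse CD8 T cells at day 9 of culture and in none of 3 earlier libraries of the same series. ATAC-seq uses a transposase that cuts and tags accessible DNA, so that a peak marks a stretch of open chromatin. Peaks overlapping by at least 1 bp were merged across all 11 libraries on chromosomes 1 to 19 and X, which gave 111041 regions. Of these, 34383 had a peak in all 8 day 9 libraries and 1037 (3.02% of the 34383) met the rule. They are called day 9-only regions below, which refers to called peaks. The value of a region in a library was its highest normalized tag count, scaled by the caller to 10 M (mega) tags of that library. The regions were chosen by the presence or absence of called peaks, so their absence from the earlier lists is a description and carries no test.

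All cells were CD8 T cells from mouse spleen with a YFP reporter at Tcf7, and the labels give no age or strain. The day 9 libraries came from cells that were sorted by reporter level at day 3, returned to culture and sorted for a second time at day 9. The groups were YFP-high at both sorts (high_to_high, 2 libraries), YFP-low at day 3 and YFP-high at day 9 (low_to_high, 3 libraries), or YFP-low at both sorts (low_to_low, 3 libraries). The 3 earlier libraries, 1 for each state, were effector cells activated ex vivo for 3 days, antigen-experienced splenocytes (CD44+, CD62L+ and YFP+) and naive splenocytes (CD44-, CD62L+ and YFP+). Separate animals or cultures are not stated for the replicates, so p-values measure the spread between libraries, which may be technical. The day 9 groups were all cultured, so that time, culture and activation cannot be told apart in the contrast that defines these regions.

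Tcf7 encodes TCF-1, a transcription factor that is high in naive and memory CD8 T cells and low in terminal effector cells. Open chromatin at gene starts is largely shared between cell states, whereas distal open regions, many of which act as enhancers, differ more between them. An activated T cell opens new distal regions through factors such as AP-1, NFAT and RUNX, and some of them outlast the stimulus. A peak list reports sites that pass a threshold, and a site without a peak may still be accessible at a lower level or lie beside a stronger summit.

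Few of the day 9-only regions lay at listed gene starts. Of the 989 on chromosomes with promoter positions, 16 (1.62%) overlapped a listed RefSeq promoter, taken as 250 bases before to 50 after the start of transcription. The listing lacks some genes. For the region inside Blk, at chr14:63416786-63417139 in a span of 63372837 to 63417187, the nearest listed start lay 345969 bp away. Regions at unlisted starts count here as not over a promoter. The 4 promoters below are shown because an annotated start of transcription lies inside the region, and these 4 of the 10 such promoters were picked after their values were seen. They are from RefSeq, build GRCm38.p6, 5′ to 3′ along the gene, and capitals mark motif matches on either strand. Whole promoters are shown, of which the day 9-only region covers the last 72 bases in Mrpl48 and the last 77 in Anxa1. The marked match lies outside the region in Mrpl48 and Anxa1, and inside it in Nlrp3 and Itpripl1.
Mrpl48, chr7:100591365-100591664, minus strand: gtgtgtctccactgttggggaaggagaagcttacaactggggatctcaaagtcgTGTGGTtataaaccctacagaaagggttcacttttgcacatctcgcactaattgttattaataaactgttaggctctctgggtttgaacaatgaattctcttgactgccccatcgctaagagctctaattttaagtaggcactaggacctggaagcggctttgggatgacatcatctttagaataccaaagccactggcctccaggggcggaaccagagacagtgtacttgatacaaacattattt
Nlrp3, chr11:59541319-59541618, plus strand: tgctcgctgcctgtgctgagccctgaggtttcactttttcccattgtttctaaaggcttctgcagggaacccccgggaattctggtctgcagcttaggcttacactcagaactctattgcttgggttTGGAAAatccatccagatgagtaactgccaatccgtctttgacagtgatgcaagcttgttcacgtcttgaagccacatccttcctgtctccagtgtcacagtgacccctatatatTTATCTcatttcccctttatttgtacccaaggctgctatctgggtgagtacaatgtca
Itpripl1, chr2:127142541-127142840, minus strand: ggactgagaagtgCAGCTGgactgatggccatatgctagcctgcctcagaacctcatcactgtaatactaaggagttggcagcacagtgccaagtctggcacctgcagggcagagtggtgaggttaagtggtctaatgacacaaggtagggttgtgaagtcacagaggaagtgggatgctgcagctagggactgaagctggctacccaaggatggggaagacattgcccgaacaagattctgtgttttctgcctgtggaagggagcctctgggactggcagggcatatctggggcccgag
Anxa1, chr19:20390622-20390921, minus strand: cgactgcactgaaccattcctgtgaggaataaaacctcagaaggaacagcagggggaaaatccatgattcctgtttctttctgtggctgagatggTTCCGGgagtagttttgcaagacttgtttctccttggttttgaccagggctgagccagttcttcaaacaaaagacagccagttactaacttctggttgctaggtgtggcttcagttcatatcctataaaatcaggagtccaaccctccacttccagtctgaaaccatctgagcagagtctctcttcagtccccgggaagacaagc

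The region over an annotated promoter of Mrpl48, which encodes a mitochondrial ribosomal protein, spanned chr7:100591180-100591436. The start of transcription of this promoter, at 100591414, lies inside the span of this minus-strand gene (100545779 to 100608301) and not at its outer end. The region had 33.5 and 25.6 normalized tags in high_to_high libraries, 37.7, 41.9 and 34.3 in low_to_high libraries and 42.2, 48.6 and 42.3 in low_to_low libraries. The low_to_low values lay above all the others, on a deposited scale on which the median of all regions was also highest in low_to_low replicates 2 and 3. Its nearest peaks in the earlier lists were 124 bp (naive), 160 bp (antigen-experienced) and 177 bp (effector) away, so this promoter had a peak close by in every state. The region over the promoter of Nlrp3, the sensor of the inflammasome, spanned chr11:59541362-59541700 and held the start of transcription. It had 22.3 and 20.3 normalized tags in high_to_high libraries, 16.2, 17.7 and 17.5 in low_to_high libraries and 20.7, 20.4 and 19.1 in low_to_low libraries. Its nearest effector peak was 1047 bp away and the nearest splenocyte peaks were more than 10 kb away. The low_to_high libraries were the 3 lowest of the 8 on the deposited scale. After centring, their log2 difference was -0.05 ± 0.14 against low_to_low and -0.42 ± 0.15 against high_to_high (SE, limma adjusted p = 0.9925 and 0.923).

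The region over the start of Anxa1, the gene of the phospholipid-binding protein annexin A1, spanned chr19:20390469-20390698. It had 8.13 and 6.92 normalized tags in high_to_high libraries, 9.62, 10.7 and 10.8 in low_to_high libraries and 8.24, 11.8 and 10.5 in low_to_low libraries. The 2 high_to_high values were the lowest of the 8 on the deposited scale. After centring, the log2 difference of high_to_high against low_to_low was -0.09 ± 0.19 (SE, limma adjusted p = 0.925). The nearest earlier peak, in the effector list, was 957 bp away. The Itpripl1 region, chr2:127142587-127142891, averaged 13.4 over the 8 libraries, with its nearest earlier peak at 385 bp. The annotated start in it, at 127142590, also lies inside the span of a minus-strand gene (127138769 to 127143457). Of the 16 regions over promoters, 5 (31.2%) had an earlier peak within 346 bp, against 76 of all 1037 day 9-only regions (7.33%). The 16 regions overlapped 17 annotated promoters, 11 of them of protein-coding genes, and the start of transcription itself lay inside the region for 10 of the 17. Zfp69 contributed 2 promoters that overlap each other.

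Exact motif matches were searched on both strands of these 17 promoters and of all 32619 promoters of the table. Whole promoters were searched, so some matches lie outside the day 9-only region, such as those of Mrpl48, Anxa1, Eci2 and Gm51986. TGTGGT (RUNX) was present in 5 of 17 promoters, against 16.6% of all promoters. CCGGAA (ETS) was present in 3, AGATAA (for GATA factors) in 3 and TGGAAA (NFAT) in 3, against 15%, 11.2% and 21.6% of all promoters. TTCNNNGAA (STAT) and CAGCTG (E-box) were present in 2 each, against 8.34% and 16.4%, and the IRF motif in 1, against 3.46%. The IRF match, in the promoter of Gm46650, overlapped a STAT match and an NFAT match. TGANTCA (AP-1), CTTTGAA and CTTTGAT (TCF and LEF), TCACACC (T-box), the NF-kB motif and the CTCF motif were in none of the 17. They were in 7.85%, 5.14%, 3.76%, 3.98%, 0.414% and 0.328% of all promoters, in the same order. With 17 promoters, 1 promoter more or less moves a share by 5.88 percentage points, and these counts describe letters in a window and not bound factors. The sequences of the other day 9-only regions were not analysed here.

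The share of regions over a promoter was 1.62% for day 9-only regions, 5.56% (56 of 1007) for the 1039 regions with peaks in the effector library and all 8 day 9 libraries but in neither splenocyte library, and 29.9% (6825 of 22840) for regions with peaks in all 11 libraries. These shares are descriptions, since promoters are also the strongest regions. At a mean level of 6 to 8 normalized tags, 3 of 303 day 9-only regions (0.990%), 19 of 265 effector and day 9 regions (7.17%) and 77 of 1627 regions of all 11 libraries (4.73%) lay over a promoter. At a level of 10 to 15 the shares were 1.28%, 4.1% and 7.81%, in the same order. At a level of 15 to 20, with 82 and 107 regions in the first 2 classes, they were 2.44%, 0.935% and 15.2%, so the order of the first 2 classes was turned there. Promoter positions on chromosome 18 were not used here, and starts missing from the listing on other chromosomes can lower the share of each class. By gene body, 586 day 9-only regions (56.5%) lay within the span of a protein-coding gene, against 57.9% of effector and day 9 regions and 65.3% of regions of all 11 libraries.

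**Figure D1:**
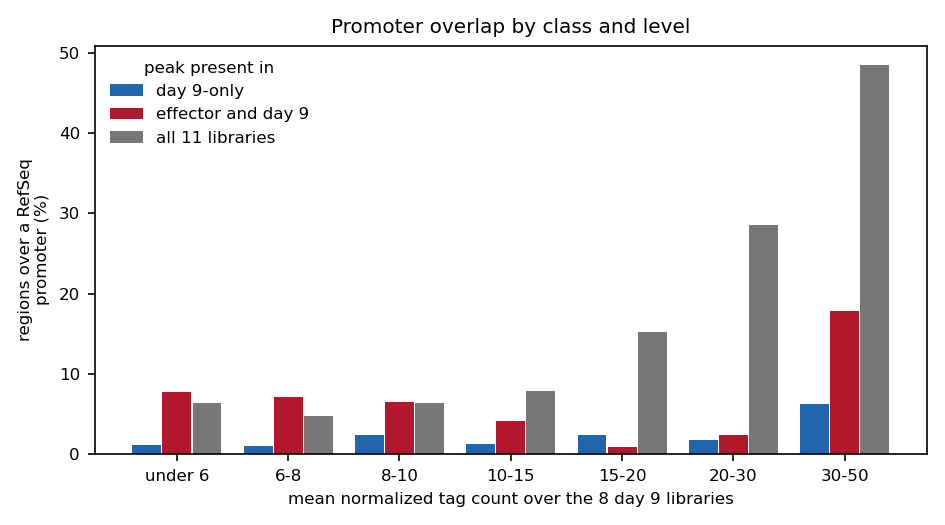
Share of regions over a RefSeq promoter (y axis, %) by mean normalized tag count over the 8 day 9 libraries (x axis), for day 9-only regions (blue), effector and day 9 regions (red) and regions with peaks in all 11 libraries (grey). The blue bars lie between 0.990% and 2.44% up to a level of 30 and at 6.25% (1 of 16 regions) at 30 to 50, where the grey bar reaches 48.5%.

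The day 9-only regions were weak. Their mean over the 8 libraries had a median of 8.82 normalized tags (quartiles 7.01 and 12.5, range 4.88 to 48.4), against 9.76 for effector and day 9 regions and 18.4 for all 34383 regions. A mean of at least 10 was reached by 400 of them (38.6%) and a mean of at least 20 by 74 (7.14%). The share of day 9-only regions among all 34383 was 16.0% below a mean of 6, 9.33% at 6 to 8, 3.66% at 10 to 15, 1.02% at 20 to 30 and 0.245% at 30 to 50. None of the 3465 regions with a mean over 50 was day 9-only. Their median signal over the surrounding 10 kb was 8.03-fold by the authors' peak value, against 9.99-fold for all regions, where the caller asked for 4-fold. It was 8.965-fold for effector and day 9 regions and 7.87-fold for day 9 regions with a splenocyte peak but no effector peak. The level of day 9-only regions varied over the 8 libraries with a median coefficient of variation of 20.6%. It was 20.7% for effector and day 9 regions and 16.6% for all regions.

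By library, the median of the 1037 regions was 8.13 and 8.0 in high_to_high libraries, 7.65, 8.85 and 8.88 in low_to_high libraries and 8.36, 11.1 and 10.1 in low_to_low libraries. The highest medians were those of low_to_low replicates 2 and 3, where the median of all 34383 regions was also highest, at 22.6 and 19.3. The day 9-only regions took 1.35 and 1.36% of the summed signal of the 34383 regions in high_to_high libraries, 1.19, 1.32 and 1.39% in low_to_high libraries and 1.23, 1.32 and 1.38% in low_to_low libraries. The groups overlapped in this share. In such bulk libraries, fewer cells with a site open and a less open site in each cell cannot be told apart.

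**Figure D2:**
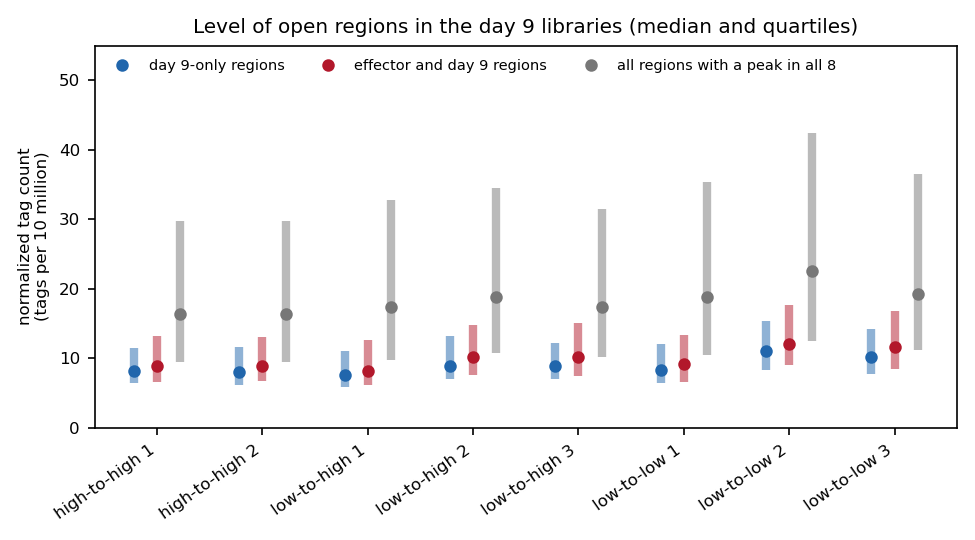
Normalized tag count (y axis, tags per 10 M) in each day 9 library (x axis), with the median as a point and the quartiles as a bar, for day 9-only regions (blue), effector and day 9 regions (red) and all regions with a peak in all 8 libraries (grey). The blue medians lie between 7.65 and 11.1 and the grey medians between 16.3 and 22.6.

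The heights that the earlier lists could hold were compared with those at day 9. At the median level of the day 9-only regions, the depth of the naive, antigen-experienced and effector libraries would give 33.1, 20.7 and 46.9 tags, and the lists held peaks with as few as 10, 8 and 14 tags. These figures scale by depth alone. Peak windows were narrower in the naive library (132 bp) and high_to_high replicate 2 (136 bp) than in the others (172 bp), which was not corrected for. All 8 day 9 values lay above the lowest value of the naive, antigen-experienced and effector lists for 1036, 1024 and 1036 regions. Those lowest values were 2.67, 3.41 and 2.63, in the same order. In the day 9 lists they were 2.25 in high_to_high replicate 2 and 2.83 to 4.32 in the others. The rule, which asks for a peak in all 8, thus largely fixes the counts for the naive and effector lists. The mean of 426 regions (41.1%) lay above the median of the effector list, of 91 (8.78%) above that of the antigen-experienced list and of 173 (16.7%) above that of the naive list. Peaks of this height were listed in each earlier library, although the caller's local filter can also remove a site. Why the day 9-only regions lack an earlier peak was not tested. Tags inside peaks made up 9.01 to 12.5% of day 9 libraries, against 9.08% in effector, 15.8% in antigen-experienced and 15% in naive cells, and the part of this difference in the missing peaks was not tested.

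An earlier peak was often near. The nearest peak of the effector library lay at a median of 5717 bp, and those of the antigen-experienced and naive libraries at 10070 and 10039 bp. An effector peak lay within 10 kb of 725 regions (69.9%), and a peak of any of the 3 libraries within 10 kb of 786 (75.8%), within 1 kb of 175 (16.9%) and within 346 bp of 76 (7.33%). The last distance is the spacing that the caller kept between peaks of 1 library in 9 of the 11 files. A site that close to a stronger summit may go unlisted. Distances here are gaps between the edges of a region and a peak, and a spacing between peak centres would reach less far. The 76 may thus include sites beyond the caller's spacing. The share within 346 bp was 16.2% (12 of 74) for regions with a mean of at least 20, 11.7% at 10 to 20 and 4.08% below 10. Effector and day 9 regions lay at a median of 11852 bp from the nearest naive peak and 12083 bp from the nearest antigen-experienced one.

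**Figure D3:**
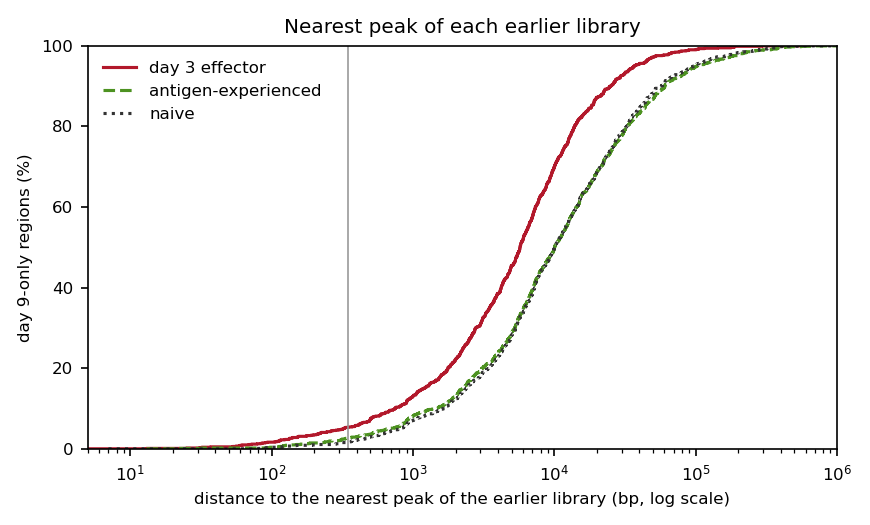
Cumulative share of the 1037 day 9-only regions (y axis, %) by distance to the nearest peak of the effector (red), antigen-experienced (green, dashed) and naive (black, dotted) library (x axis, bp, log scale), with a vertical line at 346 bp. The red curve reaches 69.9% at 10 kb, and the other curves 49.5 and 49.7%.

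The rule has a threshold at 8 of 8 libraries. With no earlier peak, 600 regions had a peak in 7 of the 8 day 9 libraries, with a median value of 6.57 in the libraries with a peak, and 7616 had one in a single library, with a median of 5.04. Among the 600, the missing library was high_to_high replicate 1 or 2 in 131 and 10, low_to_high replicate 1, 2 or 3 in 90, 63 and 160, and low_to_low replicate 1, 2 or 3 in 47, 24 and 75. The shallowest library, low_to_high replicate 3, was missing most often and the deepest, high_to_high replicate 2, least often, while low_to_high replicate 1 was missing more often than the shallower low_to_low replicate 3. On the other side of the rule, 1039 regions had peaks in all 8 libraries and, of the earlier ones, in the effector library alone, 635 in the antigen-experienced library alone and 503 in the naive library alone. Their median values in that library were 11.8, 9.37 and 6.53.

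The strongest day 9-only regions lay near genes of diverse kinds. The highest mean, 48.4, was that of a region at chr1:88584609-88584841, 58700 bp from Glrp1. It had 43.2 and 43.2 normalized tags in high_to_high libraries, 45.4, 44.1 and 44.9 in low_to_high libraries and 50.4, 60.4 and 55.6 in low_to_low libraries. The other 19 of the top 20 had means of 29.0 to 38.3 and lay in or near Mrpl48, Erv3, Il2ra, Ppa1, Glipr1, Snai3, Pced1b, Ogg1, Fam53c, Phc3, Scaf8, Atf7ip, Cd101, Slc2a6, Gprin3, Kxd1 and Senp8, and in 2 cases near no protein-coding gene within 100 kb. Within 346 bp of an earlier peak lay 5 of the 20, in or near Mrpl48, Glipr1, Pced1b, Fam53c and Cd101. The region in Senp8, which encodes a protease that acts on the ubiquitin-like protein NEDD8, was the only one of the 20 more than 10 kb from any earlier peak. Its values were 38.5 and 23.1 in high_to_high, 21.5, 27.8 and 26.2 in low_to_high and 24.8, 34.6 and 35.2 in low_to_low libraries, and the groups overlapped.

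The neighbouring genes were set beside lists of genes with known roles in T cells and of markers of other cells. The lists of 14 gene groups held 877 of the 34383 regions, of which 18 (2.05%) were day 9-only, against 3.02% of all 34383. By list, the day 9-only regions were 4 of 178 for naive and memory genes, 2 of 114 for effector genes, 2 of 65 for inhibitory receptor and exhaustion genes, 2 of 100 for interleukin-2 signalling and activation, 0 of 116 for cytokine receptors and adhesion, 1 of 74 for AP-1, NFAT and NF-kB factors, 3 of 58 for glycolysis and 1 of 85 for T cell identity. Among markers of other cells they were 2 of 20 for B cells, 1 of 19 for CD4 and regulatory T cells, 0 of 22 for myeloid cells, 0 of 25 for natural killer cells, 0 of 6 for erythroid cells and 0 of 8 for mast cells and basophils. The counts are small and no list is called particular from them. The day 9-only share also falls with level, as given above, and the regions of the lists were not matched for level.

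The strongest of the 18 lay 16553 bp from Il2ra, the gene of the interleukin-2 receptor alpha chain (CD25), which activated T cells display. This region, chr2:11626020-11626239, had 36.2 and 29.9 normalized tags in high_to_high libraries, 34.5, 34.3 and 40.6 in low_to_high libraries and 39.7, 39.1 and 35.2 in low_to_low libraries, and the 3 groups overlapped. The nearest effector peak, with a value of 47.2, was 2590 bp away. A region inside Jak1, the kinase that signals from this receptor family, had 18.2 and 19.6 in high_to_high, 18, 20.8 and 19.4 in low_to_high and 20, 24.1 and 23.2 in low_to_low libraries. Of the 14 regions in all 8 day 9 libraries assigned to Jak1, this was the 6th strongest.

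Ccr7, the chemokine receptor that guides T cells into lymph nodes, had 2 day 9-only regions, 11219 and 25031 bp from the gene. The nearer one, chr11:99166296-99166529, had 25.8 and 25.6 in high_to_high libraries, 33.8, 29.6 and 24.2 in low_to_high libraries and 31.6, 34.5 and 23.4 in low_to_low libraries. The range in each of the other groups covered the high_to_high values, and the nearest earlier peak was 3002 bp away. The region inside Bach2, a repressor of effector differentiation, averaged 13.2 and lay 149 bp from a naive peak with a value of 27.1, so that the site had a neighbour in naive cells. The region near Cxcr3, a chemokine receptor of effector and memory cells, was among the weakest, with 4.45 and 7.84 in high_to_high, 5.8, 6.68 and 6.48 in low_to_high and 6.27, 8.84 and 7.09 in low_to_low libraries.

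Among effector genes, a region 2971 bp from Gzmk, which encodes granzyme K, had 8.33 and 12.8 in high_to_high libraries, 17.3, 14.4 and 14.9 in low_to_high libraries and 15.7, 20.2 and 19.6 in low_to_low libraries. The 2 high_to_high values lay below all the others. Its log2 difference after centring was -0.48 ± 0.18 (SE) for high_to_high against low_to_low and did not pass limma's test (adjusted p = 0.313). An effector peak with a value of 19.5 lay 132 bp away. The region near Itgb1, the integrin beta 1 chain, averaged 8.07, with high_to_high values of 5.62 and 6.5 below all the others on the deposited scale, and a centred log2 difference of -0.24 ± 0.20 (SE) for high_to_high against low_to_low (limma adjusted p = 0.744).

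Inside Cd101, a surface receptor known from exhausted T cells, the region had 26.1 and 23.9 in high_to_high libraries, 29.0, 27.3 and 34.3 in low_to_high libraries and 30.9, 41.2 and 33.9 in low_to_low libraries. The high_to_high values were the lowest on the deposited scale, and after centring the log2 difference of high_to_high against low_to_low was -0.18 ± 0.14 (SE, limma adjusted p = 0.700). A naive peak with a value of 47.8 lay 7 bp from it. The region inside Tox, which encodes a nuclear factor of exhausted and memory-precursor T cells, averaged 9.29 and lay 392 bp from an effector peak. Near Batf3, an AP-1 family gene, the region had 8.72 and 8.50 in high_to_high, 7.65, 8.49 and 7.68 in low_to_high and 7.13, 6.81 and 7.52 in low_to_low libraries, so that the low_to_low values were below the other 5. Its log2 difference was 0.53 ± 0.19 (SE) for high_to_high against low_to_low (limma adjusted p = 0.295).

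Of the glycolysis genes, Pgk1 (phosphoglycerate kinase) had a region inside the gene with 12.8 and 10.3 in high_to_high, 11.2, 11.7 and 10.6 in low_to_high and 14.5, 18.9 and 17.8 in low_to_low libraries. The low_to_low values lay above the other 5, with a log2 difference of -0.33 ± 0.14 (SE) for YFP-high against YFP-low (limma adjusted p = 0.504). Regions near Hk2 (hexokinase 2) and Slc2a1 (the glucose transporter GLUT1) averaged 10.6 and 7.01. The region inside Ikzf1, which encodes Ikaros, averaged 22.3. Regions inside Bank1 and Blk, genes of B cell signalling, averaged 7.19 and 5.61 and were the weakest of their group of 18 with those near Cxcr3 and Slc2a1.

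**Figure D4:**
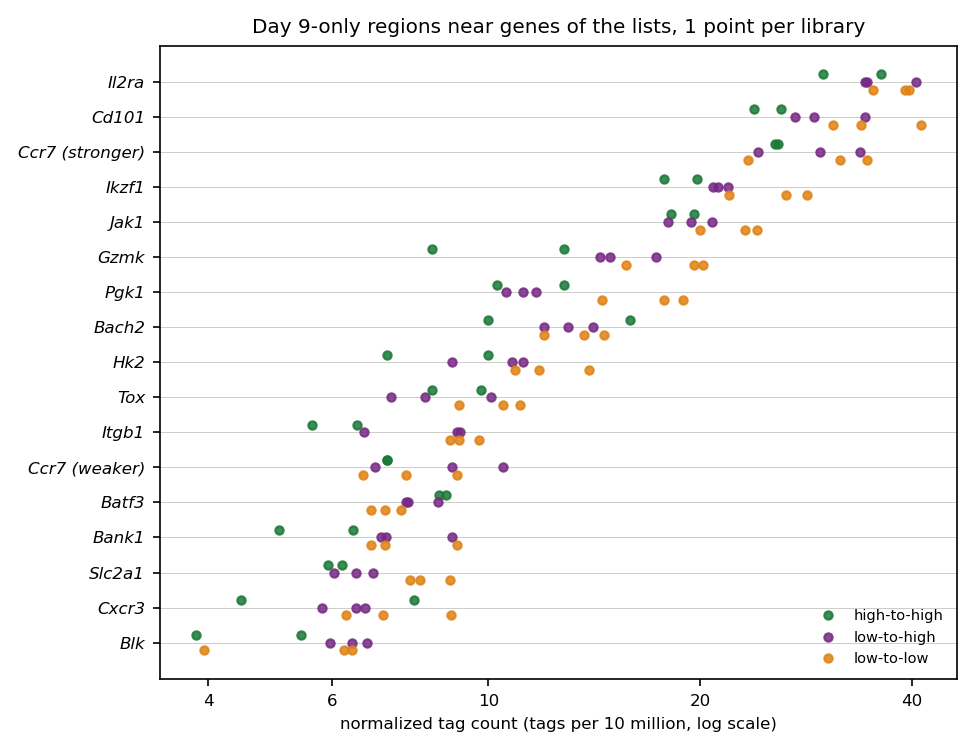
Normalized tag count (x axis, tags per 10 M, log scale) of 17 of the 18 day 9-only regions near genes of the lists, 1 row per region and 1 point per library, coloured by group (high-to-high green, low-to-high purple, low-to-low orange). Means run from 36.2 for Il2ra to 5.61 for Blk, the 3 orange points of Batf3 lie below the other 5, and those of Pgk1 above them.

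The 965 regions with a protein-coding gene within 100 kb (93.1%) were spread over 845 genes, of which 749 had 1 region. Maml3, a coactivator of Notch signalling, had the most, with 6 of its 20 regions of all 8 day 9 libraries, all inside the gene between 51730699 and 51890550 on chromosome 3. Their means ran from 8.25 to 21.0, and all 6 ranked 9th or lower by mean among the 20. Emsy, which encodes a binding partner of BRCA2, had 5 of 8, of which 4 lay before the start of its span on chromosome 7, and means of 6.06 to 11.2. Hivep3, a zinc finger gene, had 4 of 16, Nek6, a kinase of mitosis, 4 of 9, and Lama3, which encodes a laminin chain, 4 of 8. Another day 9-only region lay within 10 kb of 45 regions (4.34%) and within 50 kb of 182 (17.6%). By chromosome, the day 9-only share of regions present in all 8 libraries ran from 1.37% on X (9 of 656) to 4.83% on chromosome 18 (48 of 993).

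The rule asked for a peak in every day 9 library, so regions without a peak in 1 of the groups were left out, also from the 34383. Differences in level among the groups did not otherwise enter the rule. They were tested with limma over all 34383 regions with Benjamini-Hochberg adjustment. Values were the log2 of the normalized tag count plus 1, with every library centred on its own median. Within this choice, few day 9-only regions differed in level by reporter state. For YFP-high (5 libraries) against YFP-low (3 libraries), 2 of 1037 rose and 0 fell at a limma adjusted p under 0.05, or 0.193%, where 0.329% of all 34383 regions rose, 0.00291% fell and 0.332% were called in all. For high_to_high against low_to_low, 8 rose and 0 fell, or 0.771%, where 0.558% of all regions rose, 0.0378% fell and 0.596% were called in all. For low_to_high against low_to_low, 1 rose and 0 fell, or 0.0964%, where 0.032% of all regions were called. For low_to_high against high_to_high, limma called 0 day 9-only regions, where 0.0% of all regions were called. Each share rests on 0 to 8 regions, and no difference from the background is read from them.

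At an unadjusted limma p under 0.05 there were 100 day 9-only regions (9.64%) for YFP-high against YFP-low, 130 (12.5%) for high_to_high against low_to_low, 64 (6.17%) for low_to_high against low_to_low and 71 (6.85%) for low_to_high against high_to_high. Over all 34383 regions the shares were 8.07%, 9.92%, 5.56% and 5.09%, in the same order. The median log2 difference of the day 9-only regions was 0.01, 0.03, -0.002 and -0.04, and that of all regions between -0.01 and 0.01. With the replicate number as a block, limma called 9 day 9-only regions (8 higher and 1 lower) and 213 of all regions for YFP-high against YFP-low. The same fit called 26 (25 higher and 1 lower) and 374 of all for high_to_high against low_to_low, and 1 and 55 of all for low_to_high against low_to_low. Same-numbered low_to_high and low_to_low libraries deviated together, which high_to_high libraries did not show, and the labels state no pairing. Without centring, the median of all regions moved to -0.22 for YFP-high against YFP-low and to -0.30 for high_to_high against low_to_low. The counts were then 2 higher and 40 lower, or 4.05%, in the first and 8 higher and 113 lower, or 11.7%, in the second, where 5.88% and 21.6% of all regions were called. Tags inside peaks made up 9.01 to 10.2% of the 5 YFP-high and 10.4 to 12.5% of the 3 YFP-low libraries, and with this percentage as a covariate, chosen after seeing the data, limma called 0 day 9-only regions and 0 of all regions in every comparison. Its standard errors were larger and its log2 differences for high_to_high against low_to_low smaller in all 8 regions called there, with 0.93 ± 0.31 for Fam3c, 0.86 ± 0.32 for Prss55, 0.80 ± 0.33 for Tango6, 0.76 ± 0.24 for Shroom3 and 0.50 ± 0.35 for St18 (SE). Reporter state and this percentage cannot be told apart here.

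The clearest difference was in Shroom3, which encodes an actin-binding protein known from epithelial cell shape. The region inside the gene, chr5:92863955-92864269, had 36.4 and 35.7 normalized tags in high_to_high libraries, 28.1, 20 and 28.6 in low_to_high libraries and 19.3, 12.7 and 15 in low_to_low libraries. The 3 groups did not overlap, with low_to_high in between. The log2 difference was 1.46 ± 0.18 (SE) for high_to_high against low_to_low (limma adjusted p = 5.93e-05) and 0.84 ± 0.16 for low_to_high against low_to_low (limma adjusted p = 0.0430). For low_to_high against high_to_high it was -0.62 ± 0.18, which did not pass (limma adjusted p = 0.923). The call for low_to_high against low_to_low was lost in 6 of the 8 fits that left out a library, at limma adjusted p up to 0.696. None of these fits used the replicate number, which may pair low_to_high with low_to_low libraries, though the labels state no pairing. With it as a block, low_to_high against low_to_low gave 0.84 ± 0.14 (SE, limma adjusted p = 0.00130). The call without the block was also lost without centring, with the sum of the peaks per region and with the percentage of tags in peaks as a covariate. The first 2 comparisons share the low_to_low libraries. This region was the farthest from an earlier peak among the 8 called ones, with the nearest effector peak 33606 bp away and the nearest naive peak 188336 bp away.

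The region inside St18, a zinc finger gene, rose for high_to_high against low_to_low. It had 10.1 and 14.5 in high_to_high libraries, 7.65, 7.22 and 12.7 in low_to_high libraries and 6.15, 3.58 and 7.30 in low_to_low libraries, and the value of low_to_high replicate 2 lay just below the highest low_to_low value. The log2 difference was 1.31 ± 0.26 (SE, limma adjusted p = 0.00707). It was 0.99 ± 0.21 for YFP-high against YFP-low (limma adjusted p = 0.0217), a call that was lost in 4 of the 8 fits that left out a library. The call for high_to_high against low_to_low was lost without high_to_high replicate 2 and without low_to_low replicate 2 (limma adjusted p up to 0.175). A region 3714 bp from Fam3c, the gene of a secreted protein, had 11 and 11.6 in high_to_high libraries, 8.51, 7.40 and 6.48 in low_to_high libraries and 6.39, 5.85 and 5.37 in low_to_low libraries. The groups did not overlap, and the log2 difference of high_to_high against low_to_low was 1.13 ± 0.20 (SE, limma adjusted p = 0.00196), which was lost without high_to_high replicate 2 (limma adjusted p = 0.0546).

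The other 5 called for high_to_high against low_to_low lay inside Tango6, 2210407C18Rik and Slc4a4, a bicarbonate transporter gene, and near Prss55, a protease gene, and Tamm41, which encodes an enzyme of mitochondrial lipid synthesis. Their log2 differences were 0.85 to 0.96 (limma adjusted p 0.0164 to 0.0417). In each the 2 high_to_high values lay above the 3 low_to_low values, and each call was lost in 3 to 5 of the 8 fits that left out a library and with the covariate named above. Those of Tamm41, 2210407C18Rik and Slc4a4 were also lost with cyclic loess (limma adjusted p = 0.0620, 0.0590 and 0.0744), and that of Tamm41 with the sum of the peaks per region (limma adjusted p = 0.0543). All 8 called regions lay at least 3118 bp from any earlier peak. For low_to_high against high_to_high, the 3 lowest p were those of Pkn2 (-0.69 ± 0.19), Palld (-0.78 ± 0.23) and Shroom3, each at a limma adjusted p of 0.923. In Pkn2, a kinase gene, the values were 6.41, 6.14 and 5.52 in low_to_high and 9.49 and 9.25 in high_to_high libraries.

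None of the 18 regions near listed genes was called in any of the 4 comparisons by limma. Their log2 differences ran from -0.33 to 0.39 for YFP-high against YFP-low and from -0.48 to 0.53 for high_to_high against low_to_low, comparisons in which 0.332% and 0.596% of all regions were called. At an unadjusted p under 0.05 there were 2 of 18 in each of these comparisons, against 8.07% and 9.92% of all regions. Without centring, 1 and 2 of the 18 were called, in the same order.

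**Figure D5:**
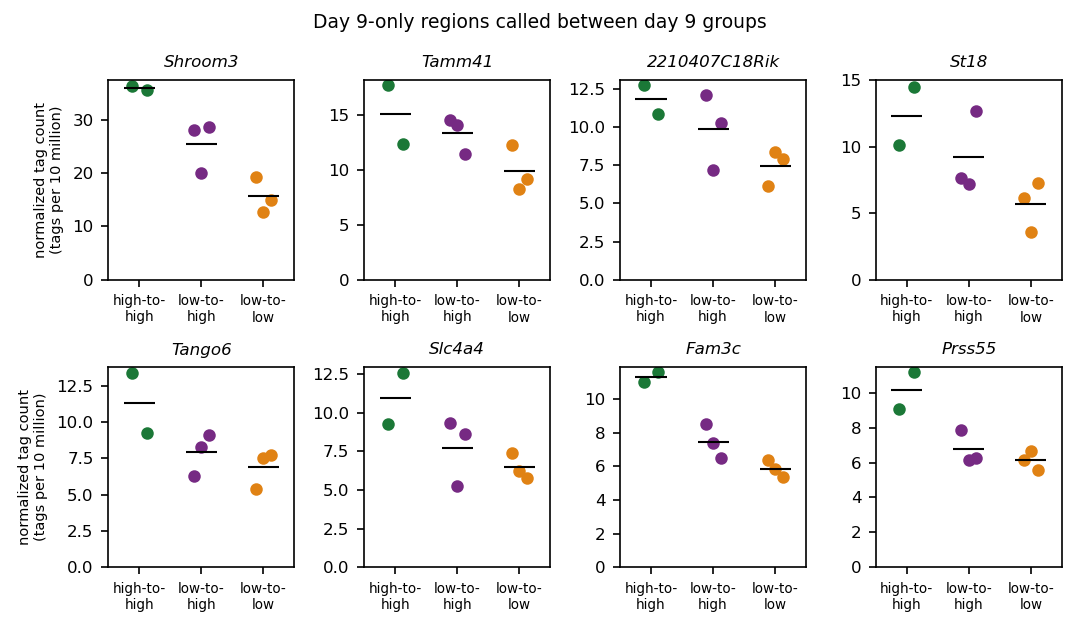
Normalized tag count (y axis, tags per 10 M, from 0) of the 8 day 9-only regions called in at least 1 day 9 comparison, with 1 point per library and a line at the group mean, for high-to-high (green), low-to-high (purple) and low-to-low (orange). High-to-high lies above low-to-low in all 8, as in Shroom3 with 36.4 and 35.7 against 12.7 to 19.3.

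The spread over the 8 libraries singled out other regions, named here as a description. The most even were near Lefty2, with a coefficient of variation of 4.24% around a mean of 8.60, and Cetn4, with 4.93% around 9.98. The most uneven was near Chrd, a gene of an antagonist of bone morphogenetic proteins, with 49.3%. It had 7.55 and 8.09 in high_to_high libraries, 7.03, 11.6 and 9.36 in low_to_high libraries and 8.36, 19.6 and 21.7 in low_to_low libraries. The high values were those of low_to_low replicates 2 and 3 alone. Ccdc171 (40.1%) had 15.2 and 15.3 in the same 2 libraries and 6.15 in low_to_low replicate 1, while Myof (40.2%) had its highest value, 13.9, in high_to_high replicate 1.

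Over the series, libraries held 20.8 to 59.97 M tags and lists 46454 to 66117 peaks. All 7 T cell genes checked for the label (Cd3e, Cd3d, Cd3g, Cd8a, Cd8b1, Cd247 and Lck) had peaks in all 11 libraries. The 2 natural killer genes, Ncr1 and Klrb1c, the myeloid genes Csf1r and Adgre1 and the B cell gene Ms4a1 had no peak in any day 9 library. The summed values over the marker genes in day 9 libraries were 608 to 853 for T cells, 103 to 184 for B cells, 10.1 to 31.1 for myeloid cells, 49.3 to 86.9 for CD4 and regulatory T cells and 79.2 to 123 for erythroid cells. Peaks near the B cell genes Cd79a and Pax5, the erythroid gene Klf1, the myeloid gene Cd14 and Cd4 thus occurred in every day 9 library, and their part in the regions near Bank1 and Blk was not tested.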

How the data were processed

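Chromatin accessibility was measured by paired-end ATAC-seq in 11 libraries of mouse CD8 T cells. The authors called peaks on each library alone, with no control and no pooling, with HOMER 4.10 findPeaks, per the file headers. A peak had to pass a false discovery rate of 0.001, 4-fold over the surrounding 10 kb and a Poisson p over local signal no higher than 1e-04. As deposited, the signal is a normalized tag count per 10 M (mega) tags, and the deposited ratio is its fold over the local signal, per the file headers. Per the submitters' processing notes, Bowtie2, DESeq2 and build mm10 were also used, with no roles given. Peak windows were 132 bp (naive), 136 bp (high_to_high replicate 2) and 172 bp (other libraries).

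Merged regions (111041, checked with bedtools 2.31.1) took the highest value per library. Genes are the protein-coding spans nearest within 100 kb in RefSeq GRCm38.p6, which shows no regulation. In R 4.3.3, limma 3.58.1 (lmFit, then eBayes with a trend) used a pseudocount of 1, which understates changes of low values, and was tested on simulated data. The 3 group comparisons came from 1 model and YFP-high against YFP-low from a model of 2 groups. Same-numbered low_to_high and low_to_low libraries deviated together (r = 0.298, 0.136 and 0.161 over regions), so their numbers may pair them. The labels state no pairing, and what these libraries share was not tested. High_to_high libraries showed no such correlation (r from -0.0407 to -0.00121). Named are the 20 highest regions, all called ones (or the 3 with lowest p), those near listed genes, genes with 4 or more regions, the 5 most and least variable, and the 10 highest over promoters. The members and lists were chosen with earlier results of these data known. 1 region near a listed gene is not reported here. Motifs were searched in promoters only.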

Additional observations from a re-analysis of the deposited data

Results flagged for a closer look

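The 5 YFP-high libraries were checked for a library far from the others, by Dixon's test, in each of the 85 named regions, and 6 were found. Chance gives about 1 in 20 such groups. In Ogg1, a DNA repair gene, high_to_high replicate 1 had 24.8 normalized tags, against 32.2 to 34.8 in the other 4. In Zfp69, low_to_high replicate 2 had 32.5, against 18.4 to 19.4 in the other 4. Of the 6 regions of Maml3, low_to_high replicate 3 had 17.0 in the region at 51730699, where the others had 20 to 21.1. Low_to_high replicate 1 had 18.3 in the region at 51739166, where the others had 16.3 to 16.7, and high_to_high replicate 2 had 10.1 in the region at 51890189, where the others had 7.17 to 7.68. In Myof, high_to_high replicate 1 had 13.9, against 4.07 to 6.68 in the other 4. The 6 flags fell in 5 of the 5 libraries.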

How the results depend on the processing

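The number of day 9-only regions was 1037. It was 960 when peaks had to overlap by 50% of the narrower peak, 1033 when peaks within 100 bp were merged and 862 when no earlier peak could lie within 1 kb. It was 217 with day 9 peaks of at least 10 normalized tags, 506 with peaks at least 6-fold over local signal and 1637 with at least 7 of the 8 day 9 libraries. Leaving out 1 library gave 1047 to 2076, with 1540, 1672 and 2076 without the naive, antigen-experienced and effector library. The share with a gene was 93.1%, 70.0% with gene spans within 10 kb and 99.4% with all genes of the table.

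For YFP-high against YFP-low, high_to_high against low_to_low and low_to_high against low_to_low, limma called 2, 8 and 1 day 9-only regions. Of all 34383 regions it called 114, 205 and 11, in the same order. Without centring the counts were 42, 121 and 0, with 2022, 7410 and 0 of all regions, and with the percentage of tags in peaks as a covariate, chosen after seeing the data, 0, 0 and 0, with 0 of all regions in each. With the replicate number as a block they were 9, 26 and 1, with 213, 374 and 55 of all regions. This block called the same number of day 9-only regions for low_to_high against low_to_low, where the numbers may pair the libraries. A pseudocount of 5 gave 5 in the first, with 147 of all regions. Cyclic loess gave 5 in the second, with 185 of all regions. A mean of at least 10 normalized tags kept 400 day 9-only regions and 26682 of all. In the second comparison, 2 and 187 of these were called. The sum of the peaks per region gave 1 in the first and 0 in the third, with 73 and 10 of all regions. The causes were not tested. Leaving out 1 low_to_high or low_to_low library gave 1 to 6, 2 to 10 and 0 to 2. Of all regions, 15 to 210, 68 to 315 and 0 to 56 were then called. The first count was 1 without either high_to_high library or low_to_low replicate 2, 4 and 5 without low_to_high replicates 1 and 2, and 6 without low_to_low replicate 1. The second was 4 and 3 without high_to_high replicates 1 and 2 and 2 without low_to_low replicate 2. The third was 2 without low_to_low replicate 1, 1 without low_to_high replicate 2 and 0 without any other library. The count for low_to_high against high_to_high was 0 in every alternative run. Where an omission left 1 high_to_high library, that library was assumed to vary like the others.

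Shroom3 passed whichever single library was left out for YFP-high against YFP-low (log2 0.88 to 1.29) and for high_to_high against low_to_low (1.25 to 1.66), and passed in 2 of 8 omissions for low_to_high against low_to_low. Over the 11 called single-region results, 117 alternative values stayed called, 52 did not and 0 turned their direction. Without centring, 1 and 2 of the 18 regions near listed genes were called for the first and second comparison. Values below 10 normalized tags rest on few tags, 637 day 9-only regions have such a mean, and 20.8 M tags in the shallowest library limit what it lists.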

Other observations

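Of the 251 day 9-only regions more than 10 kb from any earlier peak, 7 had a mean of at least 20 normalized tags. They lay in or near Senp8, Purg, Nek6, Rragc, Shroom3, Dnah5 and Slc22a15, of which Purg, Rragc, Dnah5 and Slc22a15 were chosen after their values were seen. The median mean of the 251 was 8.04, against 8.82 for all 1037.

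With the replicate number as a block, regions near Rora, a nuclear receptor gene (log2 0.66), and Slc19a1, a folate transporter gene (-0.56), were among the 9 called for YFP-high against YFP-low (limma adjusted p = 0.0377 and 0.0390). Neither was called without the block, and the high_to_high libraries, which are in this comparison, showed no pairing by number. Both were chosen after their values were seen.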
